A study of Mus musculus with 12 samples.

Results

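The clustered protocadherins are 58 mouse genes in 3 neighbouring clusters on chromosome 18, and they were taken here by gene name from the 55678 names in the expression table. The alpha cluster supplied 14 of them, the beta cluster 22 and the gamma cluster 22. Expression came from the medial prefrontal cortex of 12 mice, with or without chronic restraint stress (CRS). Their genotype was the inbred C57BL/6JmsSlc, called B6 below, or the inbred BALB/cCrSlc, called BALB/c. The 4 groups held 3 animals each, named by the numbers in their labels: B6 controls 2, 3 and 9, B6 CRS animals 12, 13 and 14, BALB/c controls 5, 9 and 10, and BALB/c CRS animals 12, 13 and 15. All mice were 9 to 10 weeks old and had passed through behavioural tests. CRS meant restraint for 6 h on each of 21 days, and controls were handled without it. The labels give no litter, sex or sequencing batch, and the tissue was a small punch, so its border with neighbouring regions is part of each sample.

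Protocadherins of these clusters are transmembrane adhesion proteins of the cadherin superfamily. In the alpha and gamma clusters each gene contributes its own first exon, with its own promoter, which is spliced to constant exons shared by the whole cluster; beta genes have a single coding exon each. A neuron switches on a small and largely random choice of the variable isoforms, through promoter methylation and looping by CTCF and cohesin, and the combination on its surface lets its branches recognise and avoid each other. The C-type isoforms Pcdhac1, Pcdhac2, Pcdhgc3, Pcdhgc4 and Pcdhgc5 lie at the ends of the alpha and gamma clusters and escape the random choice. In bulk tissue, the number of cells that chose an isoform and its level per cell cannot be told apart.

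On GRCm38, with the GENCODE M21 annotation, the alpha genes span chromosome 18 from 36930285 to 37187657 (257 kb), the beta genes from 37264938 to 37524479 (260 kb) and the gamma genes from 37661793 to 37841873 (180 kb), all on the plus strand. M21 held 57 of the 58 names, all but Pcdha10. Levels are TPM (transcript abundance corrected for length and scaled to the same total in each library), and differences are on the scale log2(TPM + 1), which understates the change of low genes. Across libraries, 14805 to 15542 genes reached 1 TPM and mitochondrial transcripts made up 17.4% to 23.9% of TPM. An 18S ribosomal RNA gene took 3.97% of TPM in BALB/c CRS 12 and 0.0307% to 0.169% in the others. The 6 excitatory neuron markers were above 0 in all libraries, with a summed level of 1219 to 2516 TPM. A level above 0 does not show how much neighbouring tissue a punch held. The summed level of 10 striatal markers was higher than theirs in B6 control 2 (3070 against 1219 TPM). The same held in B6 CRS 12 (2497 against 1230 TPM) and B6 CRS 13 (1886 against 1434 TPM), and in no BALB/c library.

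Strains differed in a few gamma isoforms and CRS changed no isoform past the test. Relative to B6, BALB/c cortex had 6.56-fold less Pcdhga11 and 3.12-fold less Pcdhgb6 in controls, and 4.52-fold more Pcdhgb8. Pcdhga3 was 2.03-fold lower in BALB/c after CRS. The alpha and beta clusters held no isoform that passed between strains. Their members were mostly low: 2 alpha and 3 beta members had a mean of at least 5 TPM, against 11 gamma members. At an adjusted p under 0.05 (limma, Benjamini-Hochberg over 16423 genes), 3 of 55 tested members were called between strains in controls, beside 4.73% of all genes; 1 was higher in BALB/c, beside 1.36% of genes, and 2 were lower, beside 3.37%. Under CRS 4 of 55 were called, beside 7.7% of all genes; 1 was higher, beside 2.37%, and 3 were lower, beside 5.33%. These shares are close to those of all genes. At an unadjusted p under 0.05 there were 9 members in each contrast, beside 18.7% and 23.8% of all genes. Of the other 3 members, Pcdha1, Pcdha8 and Pcdhb1 did not reach 1 TPM in 3 libraries and were not tested.

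Pcdhga11 is a gamma A isoform whose first exon starts at position 37755731. Its level was 7.64, 9.17 and 7.22 TPM in B6 controls 2, 3 and 9, and 7.02, 6.89 and 7.98 TPM in B6 CRS 12, 13 and 14. BALB/c controls 5, 9 and 10 had 1.21, 1.28 and 1.17 TPM, and BALB/c CRS 12, 13 and 15 had 1.40, 1.08 and 1.10 TPM. All 6 B6 libraries were therefore high and all 6 BALB/c libraries low, with no overlap and little spread within a strain. The log2 difference was -2.01 in controls (SE 0.14, limma adjusted p 1.32e-06) and -1.92 under CRS (SE 0.14, limma adjusted p 2.18e-06). It remained past the threshold in each alternative that was run, including each library left out in turn (-2.08 to -1.92 in controls and -1.99 to -1.86 under CRS).

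Pcdhgb6, a gamma B isoform that starts at 37742094, followed the same strain order with more spread. B6 controls 2, 3 and 9 had 10.5, 9.30 and 6.29 TPM and B6 CRS 12, 13 and 14 had 13.2, 10.5 and 8.68 TPM. In BALB/c the values were 3.00, 2.93 and 2.45 TPM in controls 5, 9 and 10, and 1.90, 2.98 and 3.84 TPM in CRS 12, 13 and 15. The lowest B6 library stood above the highest BALB/c library. Differences were -1.33 in controls (SE 0.22, limma adjusted p 0.00378) and -1.61 under CRS (SE 0.22, limma adjusted p 0.00094). With a myelin marker score as a covariate the call was lost in both contrasts (-0.88, limma adjusted p 0.155, and -1.14, limma adjusted p 0.0558). A striatal score as covariate ended it under CRS (-1.04, limma adjusted p 0.152).

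Pcdhgb8 went the opposite way. M21 annotates it as a polymorphic pseudogene, a class for genes that are intact in some strains and disrupted in others, with its start at 37761801. Its level was 0.520, 0.428 and 0.425 TPM in B6 controls 2, 3 and 9 and 0.786, 0.236 and 0.505 TPM in B6 CRS 12, 13 and 14, under 1 TPM throughout. BALB/c controls 5, 9 and 10 had 2.31, 1.49 and 2.40 TPM, and BALB/c CRS 12, 13 and 15 had 1.48, 2.12 and 2.47 TPM. Each BALB/c library was above each B6 library, and all 22 gamma genes reached 1 TPM in each BALB/c library against 21 in each B6 library. Since B6 libraries were all under 1 TPM, Pcdhgb8 entered the test only through BALB/c, where it is high. The difference was 1.06 in controls (SE 0.21, limma adjusted p 0.011) and 1.01 under CRS (SE 0.21, limma adjusted p 0.0133), and with no filter on low values the adjusted p was 0.0178 and 0.0195. The call in controls was lost without BALB/c control 5 (limma adjusted p 0.0529) or 10 (0.0607). That under CRS was lost without B6 CRS 13 (0.0531), BALB/c CRS 13 (0.0507) or BALB/c CRS 15 (0.0525), while the difference stayed between 0.87 and 1.20 in each case.

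Pcdhga3, the gamma A isoform that starts at 37674307, had 6.74, 6.85 and 9.45 TPM in B6 controls 2, 3 and 9 and 8.58, 5.22 and 8.80 TPM in B6 CRS 12, 13 and 14. BALB/c controls 5, 9 and 10 had 4.99, 4.53 and 5.06 TPM, and BALB/c CRS 12, 13 and 15 had 2.63, 4.62 and 3.88 TPM. The strains did not overlap, though B6 CRS 13 lay close to BALB/c control 10. The difference passed under CRS (-0.85, SE 0.21, limma adjusted p 0.032) and not in controls (-0.55, SE 0.21, limma adjusted p 0.181). The interaction of strain and CRS for Pcdhga3 was -0.30 (SE 0.30, limma adjusted p 0.9999), so the 2 strain differences were not shown to differ. The call under CRS was lost without B6 CRS 12 (limma adjusted p 0.128) or 14 (0.0928), without BALB/c CRS 12 (0.119) or 15 (0.0666), with the shared animal numbers as a block (0.0733), and with no filter on low values (0.0737).

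**Figure D1:**
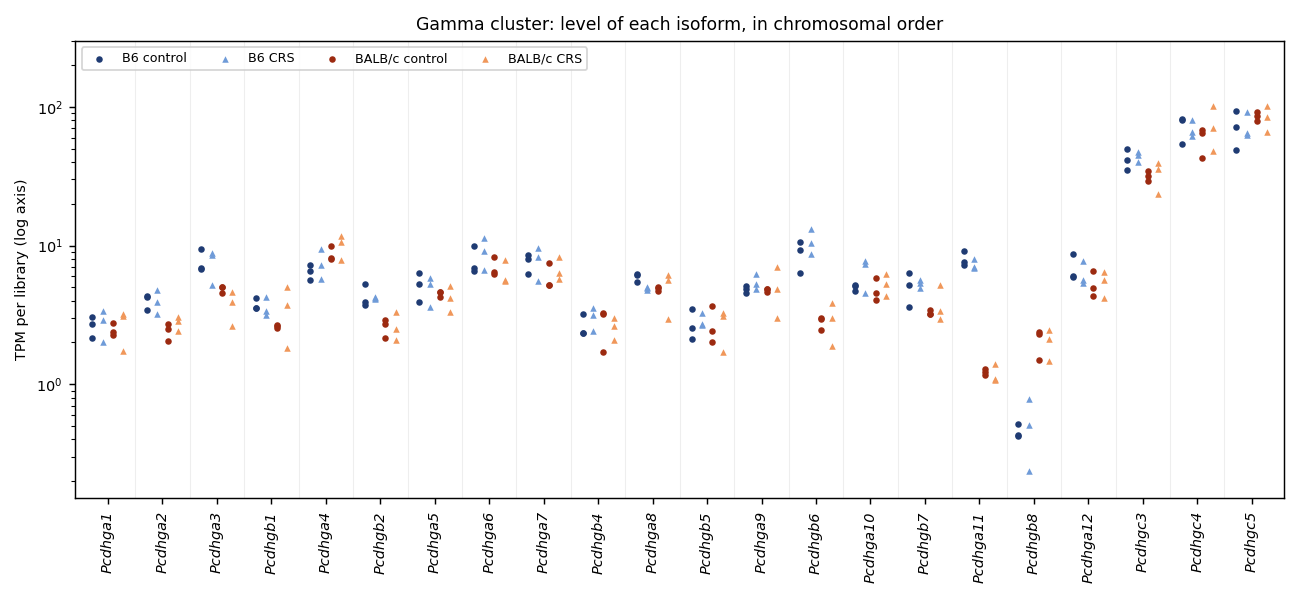
Level of each gamma isoform in each library, in TPM on a log axis, with genes in chromosomal order; circles are controls, triangles are CRS animals, blue is B6 and red to orange is BALB/c. Pcdhga11 (6.89 to 9.17 TPM in B6, 1.08 to 1.40 TPM in BALB/c) and Pcdhgb8 (under 1 TPM in each B6 library) show the widest gaps between strains, and the 3 C-type isoforms at the right stand far above the rest.

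Among the other gamma A isoforms the highest were Pcdhga4 (mean 8.17 TPM over the 12 libraries), Pcdhga6 (7.54 TPM) and Pcdhga7 (7.05 TPM), and the lowest were Pcdhga1 (2.64 TPM) and Pcdhga2 (3.30 TPM). Pcdhga4 had 5.63, 6.55 and 7.27 TPM in B6 controls and 7.20, 5.75 and 9.40 TPM in B6 CRS animals. BALB/c had 9.90, 8.02 and 8.15 TPM in controls and 7.91, 10.7 and 11.6 TPM in CRS animals. BALB/c values lay mostly above, with B6 CRS 14 inside their range, and the differences of 0.37 and 0.40 did not pass (limma adjusted p 0.304 in controls and 0.215 under CRS). Pcdhga2 spanned 3.23 to 4.77 TPM in B6 and 2.05 to 3.07 TPM in BALB/c, with no overlap, and came close to the threshold in controls (-0.55, limma adjusted p 0.0805; under CRS -0.38, 0.172).

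In the gamma B family the highest after Pcdhgb6 were Pcdhgb7 (4.38 TPM) and Pcdhgb2 (3.43 TPM), and the lowest after Pcdhgb8 was Pcdhgb4 (2.74 TPM). Pcdhgb2 spanned 3.71 to 5.32 TPM in B6 and 2.07 to 3.32 TPM in BALB/c without overlap, and its differences of -0.56 and -0.53 did not pass (limma adjusted p 0.0912 in controls and 0.0797 under CRS). Counting TPM over all 6 against 6 libraries, 6 members did not overlap between strains: Pcdhgb8 was higher in BALB/c and Pcdhga11, Pcdhga2, Pcdhga3, Pcdhgb2 and Pcdhgb6 were lower, beside 8.95% of all genes. All 6 belong to the gamma cluster, and 6 of 55 tested members is a share close to that of all genes. With 3 against 3 libraries, 14 members did not overlap in controls (3 higher and 11 lower in BALB/c, beside 22.9% of all genes) and 14 under CRS (5 higher and 9 lower, beside 29.3%).

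Gamma isoforms leaned towards lower values in BALB/c as a group. In each strain contrast 18 of 22 had a negative difference, with a median of -0.27 in controls and -0.18 under CRS, beside -0.10 and -0.06 over all tested genes; after median-of-ratios scaling, which moved the median of all genes to 0.01 in controls, 14 and 17 of 22 were negative with medians of -0.15 and -0.12. Alpha members had a median of -0.04 in controls and 0.06 under CRS, and beta members 0.03 and 0.06, and the same scaling turned the alpha median to 0.04 in controls. With the striatal score as a covariate 10 and 11 of 12 alpha members were negative, with medians of -0.28 and -0.41. The beta medians were then -0.08 and -0.10, beside -0.15 in both contrasts over all tested genes. With the myelin score the alpha medians were -0.20 and -0.16 and the beta medians 0.0002 and -0.04. All tested genes then had medians of -0.11 and -0.07. Gamma medians stayed negative, between -0.27 and -0.23, with either score.

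**Figure D2:**
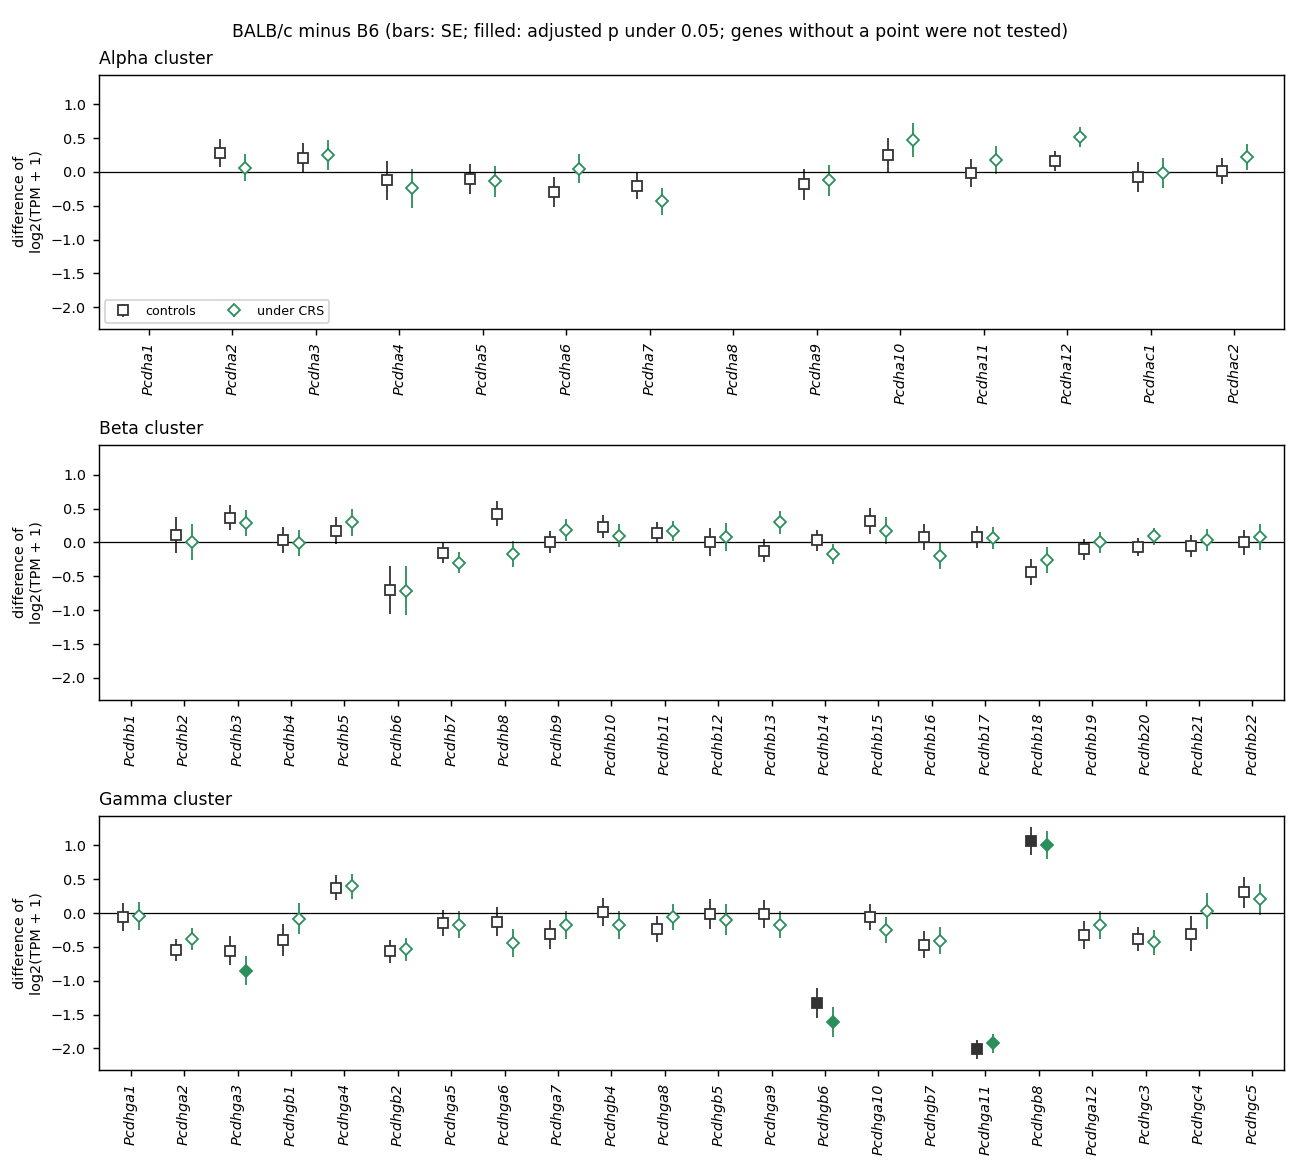
Difference of BALB/c minus B6 in log2(TPM + 1) for each tested member, in chromosomal order within the alpha, beta and gamma clusters; squares are controls, diamonds are CRS animals, bars are standard errors and filled symbols have a limma adjusted p under 0.05. Filled symbols appear for Pcdhga11, Pcdhgb6 and Pcdhgb8 in both contrasts and for Pcdhga3 under CRS, where it stood at -0.85.

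The 2 isoforms with the largest deficit in BALB/c and the one with an excess lie near each other: the starts of Pcdhgb6 and Pcdhgb8 are 19.7 kb apart, with Pcdhga10, Pcdhgb7 and Pcdhga11 between them. Pcdhga10 and Pcdhgb7 did not pass (Pcdhgb7 spanned 3.58 to 6.37 TPM in B6 and 2.97 to 5.23 TPM in BALB/c). Pcdhga3 lies 67.8 kb before Pcdhgb6. M21 places the antisense transcript Gm26672 on the minus strand over Pcdhga10 to Pcdhga12, from 37746559 to 37768242. Its own level, looked up after the gene values were seen, was 0.641 to 1.42 TPM in B6 and 0.171 to 1.68 TPM in BALB/c and overlapped between strains. Strand use in the quantification is not given in the sources used here.

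How well reads can be told apart differs between isoforms. In M21 transcripts, 99.3% of the 31-base words of the Pcdhga11 first exon occur in no other gene name of the table, against 94.2% for Pcdhga3, 87.4% for Pcdhgb8, 76.5% for Pcdhgb6 and 57.6% for Pcdhga4. For Pcdhga4, M21 lists a Pcdhgb1 transcript that ends at 37686247, inside the Pcdhga4 first exon (37685210 to 37687817). Words in that overlap count as not unique. The member with the most similar first exon was Pcdhga12 for Pcdhga11 (73.2% identity), Pcdhgb7 for Pcdhgb6 (77.7%), Pcdhgb1 for Pcdhgb8 (74.3%) and Pcdhga4 for Pcdhga3 (74.4%). Each called member was therefore also fitted as a sum with that neighbour, a step added after the values were seen. Pcdhga11 with Pcdhga12 still differed (-1.09 in controls, limma adjusted p 0.00103, and -0.94 under CRS, 0.00322), as did Pcdhgb6 with Pcdhgb7 (-1.03, limma adjusted p 0.0164, and -1.17, 0.00706). Pcdhga3 with Pcdhga4 did not pass (-0.05, limma adjusted p 0.924, and -0.10, 0.797). Pcdhga4 alone had the higher mean (8.17 against 5.95 TPM) and differed the other way (0.37 and 0.40). That sum therefore cannot tell shared reads from 2 opposite differences that cancel. Pcdhgb8 with Pcdhgb1 did not pass either (0.12, limma adjusted p 0.823, and 0.31, 0.422), where Pcdhgb1 alone had a mean of 3.37 TPM against 1.26 for Pcdhgb8. Whether reads passed between the members of a pair was not tested. Reads of BALB/c mice were quantified against GRCm38, a C57BL/6J assembly, and the effect of strain variants in the first exons on these values was not tested.

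Shares within the gamma A and B family also differed between strains. Pcdhga11 made up 8.08% ± 1.41 (SD, n = 3) of the summed gamma A and B TPM in B6 controls and 7.04% ± 0.829 in B6 CRS animals, against 1.62% ± 0.182 and 1.61% ± 0.652 in BALB/c. The share of Pcdhgb6 was 8.75% ± 2.22 and 10.4% ± 2.01 in B6 against 3.71% ± 0.497 and 3.65% ± 0.657 in BALB/c. Pcdhgb8 rose from a share of 0.459% ± 0.0436 and 0.471% ± 0.210 in B6 to 2.71% ± 0.512 and 2.57% ± 0.240 in BALB/c. Pcdhga4 gained most in share, from 6.52% ± 0.913 and 7.12% ± 1.38 in B6 to 11.5% ± 0.792 and 12.9% ± 0.817 in BALB/c, where it was the leading variable gamma isoform. These 4 shares did not overlap between 6 B6 and 6 BALB/c libraries (for Pcdhga4, 5.47% to 8.72% against 10.7% to 13.4%). No share did so among 12 variable alpha and 22 beta isoforms. Shares of a family add up to a fixed total, so they depend on each other and were not tested.

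**Figure D3:**
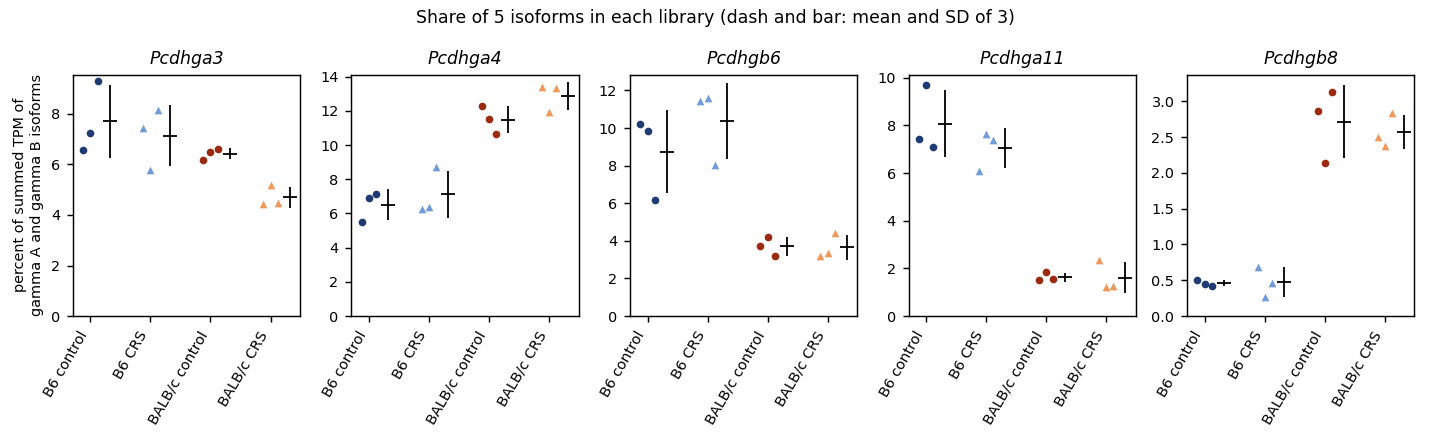
Share of 5 isoforms in the summed TPM of gamma A and gamma B isoforms, in percent, by group; each point is a library, and the dash and bar give the mean and SD of 3 libraries. Pcdhgb6 and Pcdhga11 sit lower in BALB/c and Pcdhgb8 and Pcdhga4 higher, in all 6 libraries, whereas Pcdhga3 overlaps between strains (5.79% to 9.30% in B6, 4.45% to 6.62% in BALB/c).

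Summed over the 19 gamma A and B isoforms, the level was 99.7 ± 4.47 TPM (SD, n = 3) in B6 controls, 104 ± 12.9 TPM in B6 CRS animals, 75.7 ± 5.62 TPM in BALB/c controls and 78.5 ± 16.8 TPM in BALB/c CRS animals. B6 libraries (90.1 to 115 TPM) and BALB/c libraries (59.1 to 89.3 TPM) did not overlap, nor did they after median-of-ratios scaling (89.3 to 115 against 67.3 to 84.3). Pcdhga11, Pcdhgb6, Pcdhgb8 and Pcdhga3 together held 24.9 ± 1.28 and 26.1 ± 3.37 TPM in B6 against 10.9 ± 0.657 and 9.83 ± 2.12 TPM in BALB/c. The other 15 summed to 74.8 ± 5.21 and 78.3 ± 9.66 TPM in B6 and 64.7 ± 4.97 and 68.7 ± 14.7 TPM in BALB/c, and there the strains overlapped. The 4 were picked by their strain calls in these same libraries, so this split follows in part from that choice.

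The distance between isoform profiles was taken as the percent of the variable TPM of a cluster that would have to move for one library to match another. For gamma the median was 8.75% between libraries of one group, 8.94% between treatments of a strain and 17.8% between strains under the same treatment. Without the 4 called isoforms these medians were 8.67%, 8.58% and 11.2%. Those 4 were called between strains in these same libraries, so the smaller distance between strains follows in part from that choice. For alpha the medians were 9.54%, 9.52% and 11.8%, and for beta 9.78%, 8.96% and 10.7%. In each cluster the median between treatments lay within the range found between animals of a group. So did the median between strains for alpha, for beta and for gamma without the 4 called isoforms. With all variable gamma isoforms the median between strains, 17.8%, lay above that range (6.23% to 12.7%). The number of isoforms in effective use (the exponent of the Shannon entropy of the shares) was 16.6 to 17.4 of 19 for gamma, 17.7 to 18.6 of 22 for beta and 8.94 to 10.2 of 12 for variable alpha isoforms across libraries.

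C-type isoforms carried most of the gamma signal. Pcdhgc5, an isoform of the mature brain, had 49.1, 71.0 and 93.4 TPM in B6 controls, 64.3, 62.4 and 91.5 TPM in B6 CRS animals, 86.5, 78.6 and 91.5 TPM in BALB/c controls and 65.4, 101 and 85.0 TPM in BALB/c CRS animals. Pcdhgc4, known for its role in the survival of cortical interneurons, had 82.4, 54.3 and 80.6 TPM, then 66.4, 62.1 and 80.0 TPM in B6, and 68.5, 42.9 and 64.8 TPM, then 102, 48.3 and 70.8 TPM in BALB/c, in the same order of groups. Strains and treatments overlapped widely for both, and neither passed in any contrast. Pcdhgc3, an isoform linked to dendrite growth through Axin1, had 49.9, 41.2 and 34.9 TPM and 47.1, 39.7 and 45.1 TPM in B6 against 31.7, 29.4 and 34.4 TPM and 23.7, 35.7 and 39.4 TPM in BALB/c. In controls and under CRS alike, BALB/c libraries lay just below B6 libraries of the same treatment, while over both treatments the strains overlapped. The differences of -0.38 and -0.43 did not pass (limma adjusted p 0.285 and 0.165).

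Together the 3 gamma C-type isoforms held 60.7% to 67.3% of gamma TPM in B6 libraries and 67.4% to 76.4% in BALB/c libraries, with the gamma A and B sum as the part that was lower in BALB/c. Pcdhgc4 had 3 rows in the table, and 1 of them held 82.4% to 95.0% of its TPM (36.3 to 97.2 TPM), while the other rows summed to 5.11 to 10.4 TPM. Rows carry no transcript names. M21 lists a Pcdhgc4 transcript of 2272 bases of which 6.74% of 31-base words are unique, the rest lying in constant or otherwise shared sequence, so the level of Pcdhgc4 and the gamma total are uncertain. Gamma totals were 285 ± 24.7 and 291 ± 35.1 TPM in B6 and 252 ± 27.0 and 269 ± 16.5 TPM in BALB/c, in controls and CRS animals, and they overlapped. Without the highest Pcdhgc4 row the means were 220 and 228 TPM in B6 and 200.1 and 203 TPM in BALB/c.

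The alpha cluster summed to 54.3 ± 16.0 TPM in B6 controls, 46.4 ± 7.37 in B6 CRS animals, 52.5 ± 3.55 in BALB/c controls and 52.1 ± 7.84 in BALB/c CRS animals. Pcdhac2, the C-type isoform known for the spacing of serotonergic axons, was the highest, with 15.3, 18.6 and 26.0 TPM and 16.1, 14.8 and 19.8 TPM in B6, and 20.8, 19.2 and 19.2 TPM and 15.6, 22.1 and 22.0 TPM in BALB/c. Pcdhac1 stayed between 1.08 and 2.49 TPM. Both C-type isoforms held 37.2% to 42.5% of alpha TPM, a smaller part than in the gamma cluster.

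Pcdha12, the variable exon nearest to the C-type exons, led the variable alpha isoforms with 5.95, 7.01 and 8.15 TPM in B6 controls and 5.37, 5.48 and 5.50 TPM in B6 CRS animals. BALB/c controls had 8.82, 7.15 and 7.87 TPM and BALB/c CRS animals 6.88, 9.72 and 8.26 TPM. Under CRS all BALB/c libraries lay above all B6 libraries, with a difference of 0.51 (SE 0.15, limma adjusted p 0.0556) that passed after median-of-ratios scaling (0.57, limma adjusted p 0.0101), without B6 control 2 (0.0431) or 9 (0.0397), or without BALB/c CRS 12 (0.63, limma adjusted p 0.0447). With the striatal score as a covariate it was 0.22 (limma adjusted p 0.739) and with the myelin score 0.44 (0.581). In controls the difference was 0.16 (limma adjusted p 0.624). Pcdha4 (3.51 TPM) and Pcdha5 (2.96 TPM) came next in mean level, and Pcdha8 (0.296 TPM) and Pcdha1 (0.739 TPM) were the lowest.

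Beta genes gave similar totals in the 4 groups, at 50.1 ± 3.89, 51.9 ± 5.41, 51.0 ± 3.35 and 52.9 ± 6.92 summed TPM in B6 controls, B6 CRS, BALB/c controls and BALB/c CRS. Pcdhb9 (5.84 TPM), Pcdhb17 (5.16 TPM) and Pcdhb20 (5.10 TPM) were the highest and Pcdhb1 (0.154 TPM, listed at 0 in 2 libraries) and Pcdhb4 (0.938 TPM) the lowest. Pcdhb9 spanned 5.04 to 6.51 TPM in B6 and 5.01 to 7.57 TPM in BALB/c, which overlapped almost fully. Pcdhb8 had the lowest p among beta genes that were higher in BALB/c controls and was 1.98, 1.72 and 2.15 TPM in B6 controls against 3.79, 3.00 and 2.23 TPM in BALB/c controls (0.43, SE 0.19, limma adjusted p 0.249). Pcdhb6, named after its values were seen, had the largest strain difference outside the gamma cluster. It had 3.34, 0.900 and 1.62 TPM and 3.32, 1.24 and 2.25 TPM in B6 against 0.662, 0.648 and 0.816 TPM and 0.303, 2.03 and 0.813 TPM in BALB/c, in controls and CRS animals. Controls did not overlap and CRS animals did, and the differences of -0.71 in each contrast did not pass with this spread (limma adjusted p 0.317 and 0.255). Of the 2 rows summed for Pcdhb6, 1 was at 0 in several libraries of each strain and reached 1.58 TPM in others. The other row spanned 0.900 to 1.77 TPM in B6 and 0.303 to 0.816 TPM in BALB/c, without overlap. The rows were looked up after the values were seen and were not tested alone. Rank along the chromosome and mean level had a Spearman correlation of 0.46 over 11 variable alpha, 0.29 over 22 beta and 0.07 over 19 gamma A and B genes, given as a description since the genes share libraries and reads.

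**Figure D4:**
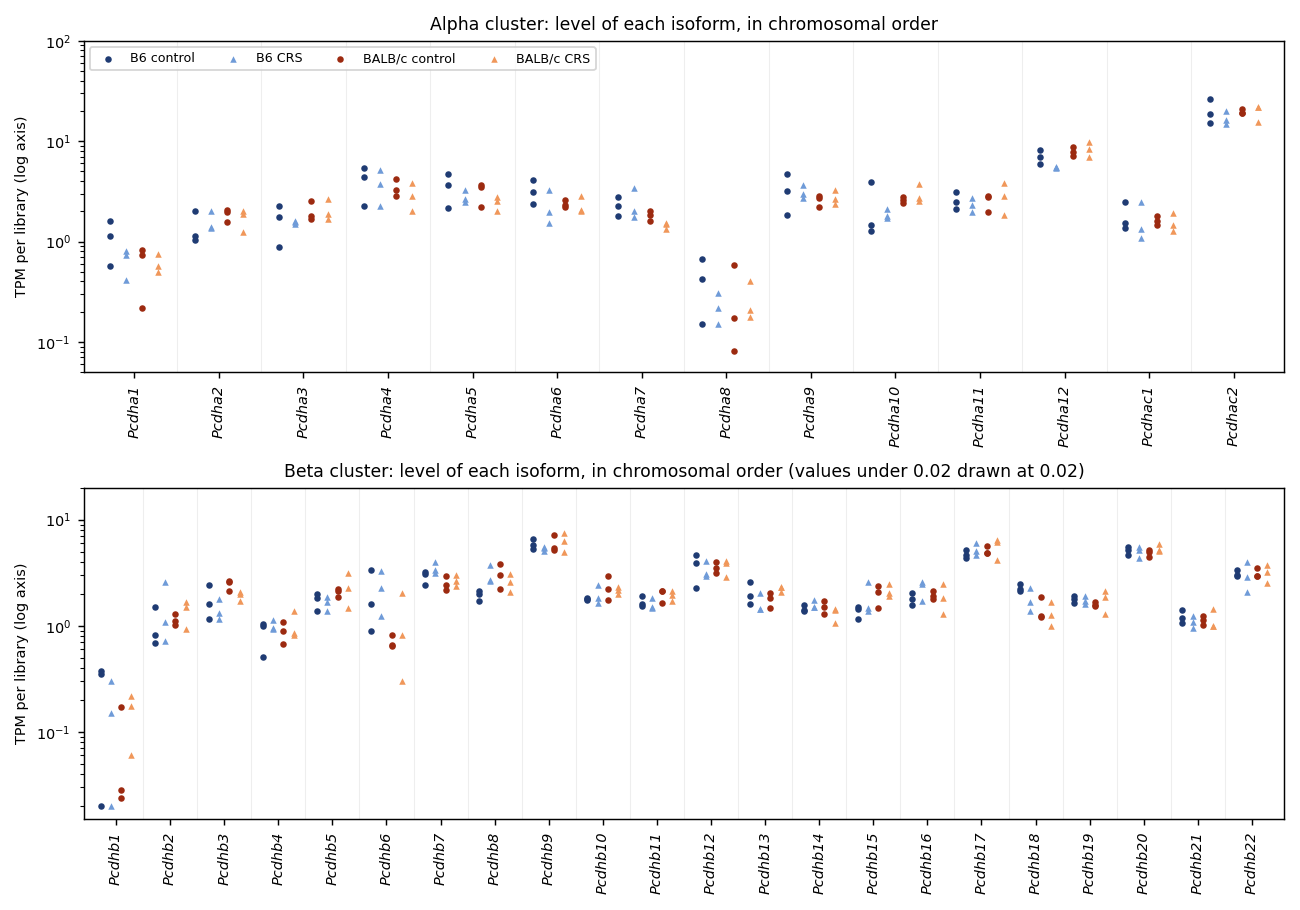
Level of each alpha isoform (top) and beta isoform (bottom) in each library, in TPM on a log axis, in chromosomal order, with circles for controls, triangles for CRS animals, blue for B6 and red to orange for BALB/c; values under 0.02 TPM are drawn at 0.02. Pcdha10, a gene name that M21 lacks, is placed by that name. With rows summed per gene name, no isoform separates the 6 B6 from the 6 BALB/c libraries. Pcdhac2 (14.8 to 26.0 TPM) stands highest in the alpha cluster, and Pcdhb1 (0 to 0.373 TPM) lies lowest in the beta cluster.

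After CRS no clustered protocadherin passed the test in either strain. In B6, 0 of 55 members were called, beside 0.0% of all genes, and 1 member had an unadjusted p under 0.05, beside 4.82%. In BALB/c, 0 of 55 were called, beside 0.00609% of all genes, and 0 had an unadjusted p under 0.05, beside 3.03%. Differences ranged from -0.38 (Pcdha6) to 0.44 (Pcdhb8) in B6 and from -0.34 (Pcdhga3) to 0.29 (Pcdhgc4) in BALB/c. Groups of 3 did not overlap for 3 members in B6 (Pcdhb8 higher, Pcdha12 and Pcdhga8 lower after CRS, beside 8.33% of all genes) and for 3 in BALB/c (Pcdhb13 higher, Pcdha7 and Pcdhb3 lower, beside 7.39%). A test that does not pass does not show that the levels were equal.

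Pcdhb8 was the member with an unadjusted p under 0.05: its 2.71, 3.71 and 2.63 TPM in B6 CRS animals lay above the 1.98, 1.72 and 2.15 TPM of B6 controls (0.44, SE 0.19, p 0.0378, adjusted p 1, limma). These are sums of 2 rows, and 1 row held the rise, from 0.875, 0.358 and 0.706 TPM to 1.36, 2.65 and 1.36 TPM. The other row overlapped, at 1.11, 1.37 and 1.44 TPM in B6 controls and 1.35, 1.06 and 1.27 TPM in B6 CRS animals. The rows were not tested alone. In BALB/c the sum for Pcdhb8 was 3.79, 3.00 and 2.23 TPM in controls and 3.07, 2.06 and 2.57 TPM after CRS, which overlapped. The interaction of strain and CRS for this sum was -0.60 (SE 0.26, p 0.0437, limma adjusted p 0.9999). Pcdhb8 was the 1 member with an unadjusted p under 0.05 there, beside 2.7% of all genes. By limma, 0 of 55 members passed for the interaction, beside 0.0% of all genes. The other members of lowest p were Pcdhga10 (0.30) and Pcdha12 (-0.31) in B6, and Pcdhb13 (0.23), Pcdhgb1 (0.26) and Pcdhb3 (-0.24) in BALB/c. For the interaction they were Pcdhb13 (0.42), Pcdha12 (0.36) and Pcdhga6 (-0.32), each with a limma adjusted p of 0.9999. The contrasts of 1 strain share their control libraries with the strain contrast in controls.

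**Figure D5:**
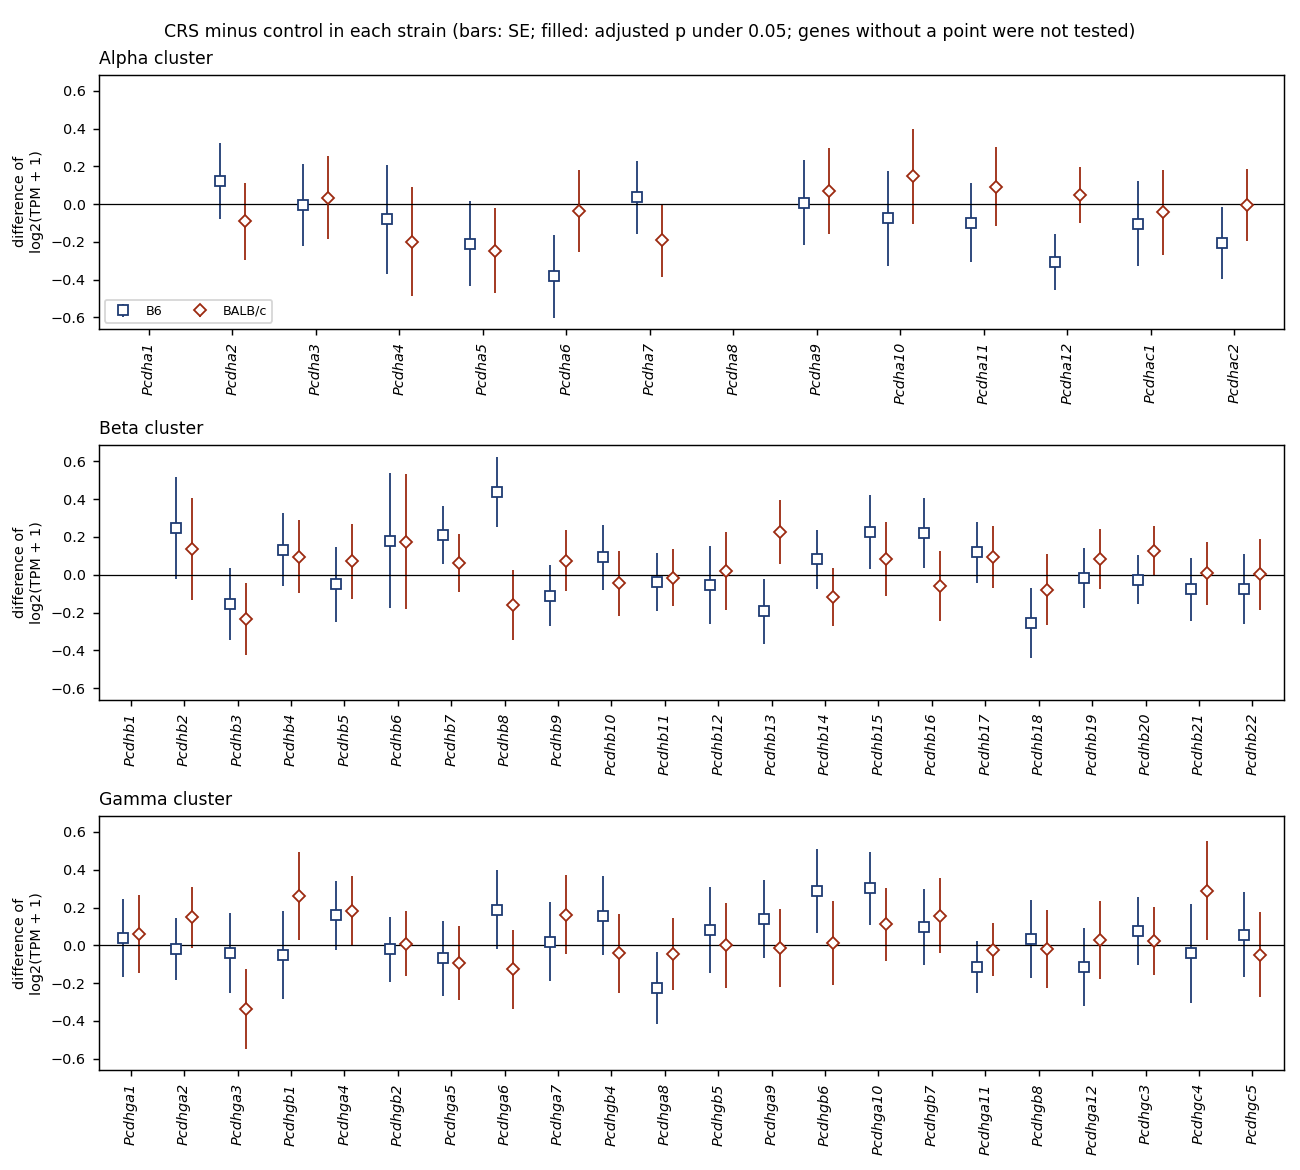
Difference of CRS minus control in log2(TPM + 1) for each tested member, in chromosomal order within the 3 clusters; squares are B6, diamonds are BALB/c and bars are standard errors. No symbol is filled, since no member had a limma adjusted p under 0.05, and the values lie between -0.38 and 0.44.

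RNA markers of the make-up of the punches differed in level between strains, though the striatal and myelin sums overlapped between strains in controls. All 10 striatal markers were above 0 in each library and summed to 234 to 3070 TPM in B6 controls, 1050 to 2497 TPM in B6 CRS animals, 136 to 427 TPM in BALB/c controls and 155 to 206 TPM in BALB/c CRS animals. Myelin markers (10, none at 0) summed to 2598 to 9961, 2815 to 8072, 491 to 3168 and 556 to 1493 TPM in those groups. By limma 0 of 10 striatal markers were called between strains in controls and 8 under CRS, all lower in BALB/c. Of 10 myelin markers Opalin was called lower in both contrasts and Mal under CRS. These calls stand beside 4.73% and 7.7% of all genes. After CRS all 10 striatal markers had higher values in B6 (median 1.21) and 1 of 10 in BALB/c (median -0.36), with 0 called in either strain. All 6 astrocyte markers had lower values in BALB/c (median -0.40 in both contrasts), and Aqp4 passed in controls (-0.63, limma adjusted p 0.036). All 6 excitatory neuron markers had higher values in BALB/c (medians 0.24 in controls and 0.52 under CRS), and Neurod6 passed under CRS (1.02, limma adjusted p 0.0238). B6 control 9 had a striatal score (mean log2(TPM + 1) of the markers) of 3.58, within the BALB/c range of 3.25 to 4.74. Its myelin score of 6.75 also lay within the BALB/c range of 4.34 to 6.97. The myelin score of B6 CRS 14, 6.77, lay there too, while its striatal score of 5.99 was above the BALB/c range. B6 CRS 14 had 7.98 TPM of Pcdhga11, 8.68 of Pcdhgb6, 8.80 of Pcdhga3 and 0.505 of Pcdhgb8. B6 control 9 had 7.22 TPM of Pcdhga11, 6.29 of Pcdhgb6, 9.45 of Pcdhga3 and 0.425 of Pcdhgb8. Of the 6 B6 libraries it had the lowest Pcdhgb6 and the highest Pcdhga3. It is 1 library, and the link between its scores and its isoform levels was not tested. With either score as a covariate Pcdhga11 remained called in both contrasts. Pcdhga3 under CRS was lost with the myelin score (-1.04, limma adjusted p 0.172) and with the striatal score (-1.16, 0.146). Pcdhgb8 was lost with the myelin score (0.96 in controls, limma adjusted p 0.201, and 0.90 under CRS, 0.283) and, under CRS, with the striatal score (0.99, 0.267). The part of tissue make-up in the strain differences was not tested beyond these fits.

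The genes that act on the clusters or with their products held no call, beside 4.73% and 7.7% of all genes called between strains. Of 22 regulators of the clusters (CTCF, cohesin and its loaders, DNA methylation and the Setdb1 and Smchd1 silencing systems) 20 were tested and 0 were called by limma in any of the 5 contrasts, with medians of -0.14 in both strain contrasts; the highest were Trim28, a co-repressor, at 84.3 TPM and Rad21, a cohesin subunit, at 49.5 TPM. Of 19 partners and signalling genes (the WAVE complex, focal adhesion kinases, and the proteases that cleave protocadherins) all were tested and 0 called, with Cyfip2 (236 TPM) and Rac1 (236 TPM) the highest. Of 12 protocadherins outside the clusters, 11 were tested, and Pcdh10 (78.9 TPM) and Pcdh1 (76.7 TPM) were the highest. Pcdh11x, an X-linked protocadherin, passed in both strain contrasts, at 3.92 ± 0.300 and 3.82 ± 0.168 TPM in B6 against 7.37 ± 1.53 and 6.69 ± 1.51 TPM in BALB/c (0.75, limma adjusted p 0.0241, and 0.66, 0.0366). Pcdh15, of the mechanosensory tip link, passed under CRS (4.59 ± 0.224 TPM in B6 and 9.33 ± 2.24 TPM in BALB/c; 0.86, limma adjusted p 0.0219). Both genes lost their calls with either tissue score as a covariate or with the block of animal numbers. Pcdh11x was also lost with no filter on low values (limma adjusted p 0.0582 in controls and 0.0762 under CRS) and, under CRS, with a mean of at least 5 TPM required (0.0591). Single libraries mattered too: Pcdh11x lost its call in controls without B6 control 2 or 3 or BALB/c control 5 or 10 (limma adjusted p 0.0556 to 0.101), and under CRS without BALB/c control 10 or any CRS library but BALB/c CRS 12 (0.0510 to 0.121). Pcdh15 lost it without any CRS library but BALB/c CRS 12 (limma adjusted p 0.0550 to 0.0818).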

How the data were processed

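RNA from 12 punches of medial prefrontal cortex was sequenced as stranded poly(A) libraries, per the labels' protocols. The values are TPM as the authors deposited them, in 1 table of 147902 rows that carry gene names only. Per the submitters' processing notes, cutadapt 2.9, Salmon and GRCm38 were used; the annotation, the options and the use of strand are not given in the sources used here. TPM keeps no read depth, so counting error is unknown and the 3 animals of a group give the only measure of precision. The table had 0 columns of no sample.

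Rows were summed per gene name (88 rows for the members). Genes that reached 1 TPM in 3 or more libraries were analysed on log2(TPM + 1), pseudocount 1, with limma 3.58.1 (lmFit, contrasts.fit, eBayes with trend) in R 4.3.3, on 4 group means over all 12 libraries; a call is a Benjamini-Hochberg adjusted p under 0.05 over all genes tested. The fit was tested on simulated data. Sums, shares and distances got no test. Positions come from GENCODE M21, and first exons were compared with blastn 2.17.0. Reads in the constant exons are split between isoforms by the quantifier, whose effect was not tested.

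Members named are those called, the C-type isoforms, the 3 highest and 2 lowest of each family by mean TPM, and the 2 of lowest p per contrast and direction; of the regulator, partner and other protocadherin lists, those called and the 2 highest. Other members are named for not overlapping between groups or for lying near the threshold, after their values were seen. Members, lists and tests were chosen with earlier results of these data known. Animal numbers 9, 12 and 13 occur in both strains but belong to different animals and do not pair them. Alternatives were 2 other pseudocounts, 2 other filters, median-of-ratios scaling, a replicate block, myelin and striatal scores as covariates, no trend, and each library left out.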

Additional observations from a re-analysis of the deposited data

How the results depend on the processing

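TPM keeps no depth and 3 animals per group limit the tests. Striatal and myelin marker levels differed between strains, with overlap in controls, so the covariate fits also remove strain difference that moves with those scores. The count of called members between strains in controls (3) moved to 1 with a mean of at least 5 TPM required, which left 16 members to test, and to 1 with the myelin score as covariate; it was 2 to 3 with each library left out. Under CRS the count (4) moved to 2 with that filter, to 1 with the myelin score and to 1 with the striatal score, and was 2 to 5 with each library left out (2 without BALB/c CRS 15). Median-of-ratios scaling gave 5 under CRS, 2 higher and 3 lower in place of 1 and 3. The counts after CRS in each strain and for the interaction were 0 in every alternative run.

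After CRS in BALB/c the difference was -0.34 for Pcdhga3 alone and 0.0075 (limma adjusted p 1) for its sum with Pcdhga4. The sum is another quantity, to which Pcdhga4, at 0.18 in this contrast, gave the larger part. Pcdhga3 alone stayed between -0.47 and -0.16 with each library left out. That sum, like the totals without a Pcdhgc4 row, was chosen after seeing the data. Without that row the gamma total fell to 220 TPM in B6 controls, 228 in B6 CRS, 200.1 in BALB/c controls and 203 in BALB/c CRS animals. As a percent of variable gamma isoforms instead of all gamma isoforms, over both treatments, Pcdhga11 was 7.56 in B6 and 1.62 in BALB/c, Pcdhga3 7.42 and 5.56, Pcdhgb6 9.56 and 3.68, and Pcdhgb8 0.465 and 2.64, since the C-type isoforms leave the denominator.

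The block on shared animal numbers gave 3 members in controls and 3 under CRS, where Pcdhga3 was lost (-0.85, limma adjusted p 0.0733). The numbers do not pair the animals: deviations of same-numbered libraries from their group means correlated at -0.24 (number 9), -0.03 (12) and -0.04 (13) over all tested genes. The cause of the other moves was not tested.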
